A study of Mus musculus with 12 samples.

Results

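The proteasome genes described here are the 49 mouse genes whose symbols begin with Psma to Psmg followed by a number, out of 33641 gene symbols measured in heart muscle. They were chosen by symbol alone, and the 3 genes of the immunoproteasome, Psmb8, Psmb9 and Psmb10, were set against the constitutive subunits. The values are TPM (the share of a library that a transcript takes after division by its length), and the 237 transcripts of these genes were summed to genes. A gene was tested where at least 3 of the 12 libraries reached 1 TPM, which 47 of the 49 did. Psma8, an alpha subunit of the testis, stayed between 0.19 and 0.689 TPM. Psmb11, the catalytic subunit of the thymus, was measured at 5.84 TPM in 1 library and at no more than 0.278 TPM in the other 11.

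The libraries came from the myocardium of wild-type C57BL/6 males, 3 in each of 4 groups: sham-operated mice given vehicle, sham-operated mice given prednisone, and mice with a myocardial infarction (MI) given vehicle or prednisone. Prednisone, a synthetic glucocorticoid, was injected into the abdomen at 1 mg/kg every week when the lights came on, for 6 weeks from 2 weeks after surgery, and the tissue was collected 24 hours after the last dose. The protocol puts the mice at about 10 weeks of age at injection, and their label at about 16 weeks. All groups therefore carry an operation and a course of injections, and a mouse with neither was not analysed here.

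The proteasome is the protease that degrades proteins marked with ubiquitin. Its barrel-shaped core, the 20S particle, has outer rings of alpha subunits and inner rings of beta subunits, of which Psmb5, Psmb6 and Psmb7 hold the active sites, and the 19S cap recognises, unfolds and feeds in the substrate through a ring of ATPases and a set of non-ATPase subunits. Interferon gamma induces Psmb8, Psmb9 and Psmb10, which replace Psmb5, Psmb6 and Psmb7 in newly built cores, and the resulting immunoproteasome is abundant in leukocytes and makes peptides for class I antigen presentation. In heart muscle the proteasome removes damaged and misfolded proteins.

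The stretches of 250 bases before the start sites of the 3 inducible genes are shown because the immunoproteasome is known to be induced by interferon, which acts through sites near gene starts, and these are the 3 genes set against the constitutive subunits. They are from RefSeq (GRCm38.p6), written 5′ to 3′ along the gene's strand. The start sites are those of RefSeq and differ from the GENCODE M21 gene spans given below. By those wider spans the Psmb8 and Psmb9 stretches lie inside the gene, and the Psmb10 stretch overlaps the gene's start. The Psmb8 stretch is chr17:34197945-34198194 on the plus strand, with capitals for the match to TTCNNNGAA, the gamma-activated site bound by STAT factors. The Psmb9 stretch is chr17:34187331-34187580 on the minus strand, with capitals for a match to CCAAT on the opposite strand. The Psmb10 stretch is chr8:105938393-105938642 on the minus strand and held no match to the 4 motifs searched.
Psmb8: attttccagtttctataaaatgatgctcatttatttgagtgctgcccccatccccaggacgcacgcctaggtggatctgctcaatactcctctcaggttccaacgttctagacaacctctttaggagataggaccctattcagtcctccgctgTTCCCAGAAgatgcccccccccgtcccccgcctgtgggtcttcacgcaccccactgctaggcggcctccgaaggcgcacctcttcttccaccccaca
Psmb9: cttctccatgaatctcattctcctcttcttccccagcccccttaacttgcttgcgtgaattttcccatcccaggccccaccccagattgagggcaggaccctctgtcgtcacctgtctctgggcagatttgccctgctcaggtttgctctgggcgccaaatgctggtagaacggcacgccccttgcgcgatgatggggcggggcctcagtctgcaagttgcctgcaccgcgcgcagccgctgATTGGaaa
Psmb10: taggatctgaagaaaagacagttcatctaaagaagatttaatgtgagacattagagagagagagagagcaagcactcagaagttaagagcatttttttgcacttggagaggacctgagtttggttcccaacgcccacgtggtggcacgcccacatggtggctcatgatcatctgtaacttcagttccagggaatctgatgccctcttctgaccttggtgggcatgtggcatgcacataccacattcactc
The Psmb9 stretch also holds the start of Tap1, the gene of the peptide transporter of antigen presentation, which runs in the opposite direction from a start 226 bases away.

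Promoters of this kind were present for 41 of the 49 genes, in 44 windows, and both strands were searched for 4 motifs. The interferon-stimulated response element, searched as GAAA, any 2 bases and GAAA, was found in 3 windows (6.82%), those of Psmb3, Psmd4 and Psmd9, against 2.98% of all 32851 windows in the table. TTCNNNGAA was found in 2 windows, those of Psmb8 and Psmg1 (4.55%, against 7.02% of all). CCAAT was found in 14 windows (31.8%, against 33.8% of all), and the antioxidant response core TGACNNNGC in 5 (11.4%, against 10.2%). The motifs can overlap each other, and a match describes letters in the window and no binding.

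How many reads each library holds is unknown, since TPM carries no depth, and precision rests on the spread between 3 mice. Genes at 1 TPM or more numbered 11690 to 14307 per library, and mitochondrially encoded transcripts took 21.6% to 42.0% of the TPM. That share was 24.6% and 21.6% in MI prednisone replicates 1 and 2 and 23.1% in MI vehicle replicate 3, against 32.4% to 42.0% in the other 9, and its part in the results that rest on these 3 libraries was not tested. The library MI vehicle replicate 3 stood apart. It alone held high levels of 8 genes of the thymus and its T cells (a list chosen after the values were seen), 553 TPM in sum against 0.861 to 26.5 TPM in the other 11, with Rag1 at 88.0 TPM, Dntt at 136 TPM and Cd8b1 at 142 TPM. The 5.84 TPM of Psmb11 were in this library, and the next highest sums of the thymus list, 26.5 and 8.32 TPM, were in sham vehicle replicates 2 and 1. Of the 49 proteasome genes, 44 had their highest value in MI vehicle replicate 3, so the main calls below are given with and without it. Markers of heart muscle cells summed to 14668 TPM or more in all 12 libraries. Postn, a matrix gene of activated fibroblasts, was at 37.9 to 119 TPM in the 6 MI libraries and at 12.6 to 17.3 TPM in the 6 sham libraries.

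Among the constitutive core genes, mean levels over all libraries ranged from 38.2 TPM for Psma5 to 152 TPM for Psmb6, with a median of 90.0 TPM over the 14 genes. The 17 genes of the 19S ATPases and non-ATPases had a median of 48.7 TPM and ranged from 31.0 TPM for Psmd14, the deubiquitinating subunit, to 129 TPM for the ATPase Psmc3. The inducible subunits were lower, at 12.1, 23.7 and 47.6 TPM for Psmb9, Psmb8 and Psmb10. The assembly chaperones of the 20S core, Psmg1 to Psmg4, lay between 9.14 and 18.96 TPM, and those of the 19S base, Psmd5, Psmd9 and Psmd10, between 6.31 and 11.9 TPM. Over the 12 libraries the coefficient of variation had a median of 17.3% over the 47 tested proteasome genes, against 30.6% over the 13158 genes tested. It was 65.7% for the median inducible gene and 30.4% without MI vehicle replicate 3.

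Summed over all 49 genes, the proteasome took 2341, 2512 and 2324 TPM in sham vehicle and 2364, 2392 and 2706 TPM in sham prednisone. It took 2505, 2869 and 3743 TPM in MI vehicle and 2701, 2943 and 2444 TPM in MI prednisone. The highest sum was that of MI vehicle replicate 3, and the MI prednisone range overlapped the sham prednisone range. The inducible genes made up 16.5%, 15.7% and 12.5% of the summed TPM of the 6 active-site subunits in sham vehicle and 15.4%, 11.3% and 15.1% in sham prednisone. In MI vehicle the share was 19.4%, 19.3% and 31.1%, and in MI prednisone it was 21.7%, 20.95% and 17.8%. The 6 MI hearts all lay above the 6 sham hearts, also with MI vehicle replicate 3 left out.

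**Figure D1:**
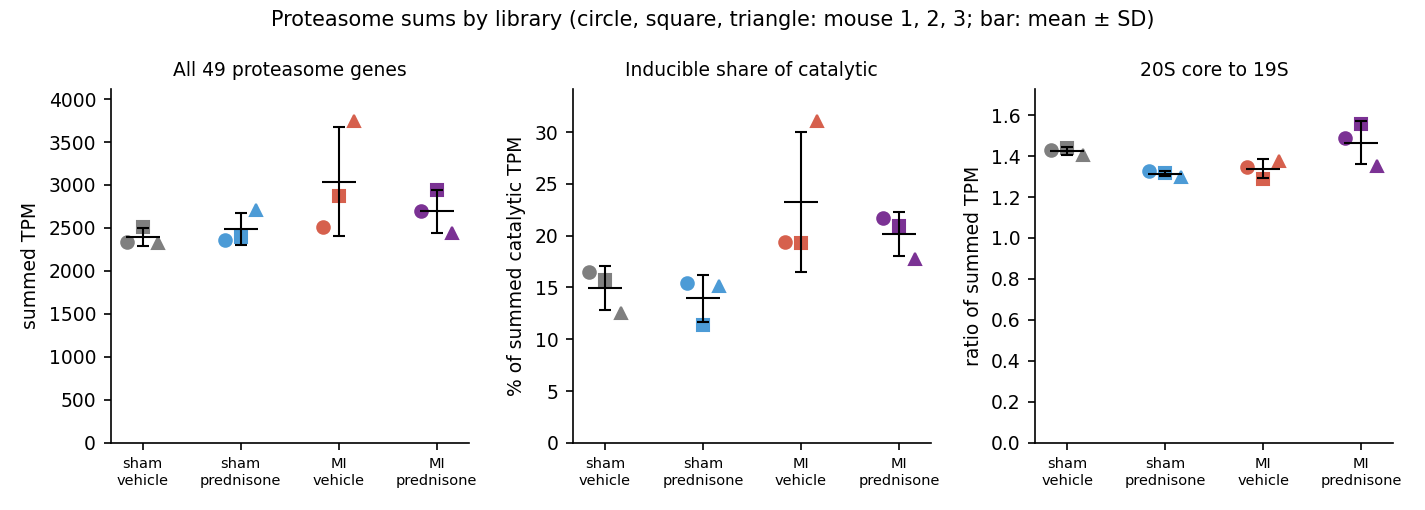
Sums over proteasome genes per library: the TPM of all 49 genes, the inducible share of the 6 active-site subunits in percent, and the ratio of the 14 constitutive core genes to the 17 genes of the 19S ATPases and non-ATPases. Symbols are single mice and bars are the mean ± SD of 3; MI vehicle mouse 3 is highest in the first and second panels, and sham prednisone is lowest as a group in the third.

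The ratio of constitutive core to 19S transcripts was 1.43, 1.44 and 1.40 in sham vehicle and 1.33, 1.32 and 1.30 in sham prednisone. It was 1.35, 1.29 and 1.38 in MI vehicle and 1.49, 1.56 and 1.35 in MI prednisone. In sham hearts the ratio with prednisone lay below that with vehicle without overlap, and in MI hearts it ran the other way, with MI prednisone replicate 3 inside the MI vehicle range. A ratio within a library does not move with the scaling of that library. It can move with a relation of change to transcript length, described below. The median length was 1048 bases over the core genes and 1579 bases over the 19S genes. These ratios, and the part of length in them, were not tested.

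Psmb10 (LMP10 or MECL-1, chr8:105935735-105938444, minus strand, GRCm38) was measured at 37.5, 37.3 and 31.3 TPM in sham vehicle, 33.3, 28.9 and 41.2 TPM in sham prednisone, 46.6, 56.6 and 75.0 TPM in MI vehicle and 66.4, 68.6 and 48.0 TPM in MI prednisone. Every MI heart was above every sham heart. Its constitutive counterpart Psmb7 was measured at 105, 106 and 103 TPM in sham vehicle, 96.5, 106 and 114 TPM in sham prednisone, 98.6, 110.3 and 125 TPM in MI vehicle and 95.9, 105 and 97.8 TPM in MI prednisone, with all groups overlapping. Psmb10 stood at 33.7 ± 2.98% of Psmb7 in sham vehicle, 32.7 ± 4.78% in sham prednisone, 52.8 ± 6.38% in MI vehicle and 61.2 ± 10.7% in MI prednisone (SD, n = 3 each). The 6 sham ratios reached 36.2% at most, and the 6 MI ratios began at 47.3%.

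Psmb9 (LMP2, chr17:34181987-34187764, minus strand) was measured at 8.62, 9.26 and 4.56 TPM in sham vehicle, 9.83, 4.54 and 8.60 TPM in sham prednisone, 9.97, 12.3 and 34.3 TPM in MI vehicle and 13.6, 18.8 and 11.1 TPM in MI prednisone. All 6 MI values were above the 6 sham values, the closest being 9.97 TPM in an MI and 9.83 TPM in a sham heart. Its counterpart Psmb6 was measured at 139, 156 and 140.3 TPM in sham vehicle, 134, 144 and 156 TPM in sham prednisone, 140.0, 156 and 196 TPM in MI vehicle and 159, 176 and 130.3 TPM in MI prednisone. Psmb9 stood at 5.13 ± 1.63% of Psmb6 in sham vehicle, 5.34 ± 2.10% in sham prednisone, 10.8 ± 5.82% in MI vehicle and 9.26 ± 1.25% in MI prednisone (SD, n = 3 each). The lowest MI ratio, 7.12%, was inside the sham range, which ended at 7.34%.

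Psmb8 (LMP7, chr17:34197721-34201454, plus strand) was measured at 20.1, 20.6 and 12.5 TPM in sham vehicle, 15.4, 10.9 and 17.6 TPM in sham prednisone, 22.5, 20.7 and 92.0 TPM in MI vehicle and 21.5, 20.6 and 10.4 TPM in MI prednisone. The 92.0 TPM of MI vehicle replicate 3 stood far above the 11 other libraries, in which the highest value was 22.5 TPM. Its counterpart Psmb5 was measured at 90.6, 97.6 and 94.6 TPM in sham vehicle, 91.4, 97.5 and 109 TPM in sham prednisone, 89.5, 109 and 126 TPM in MI vehicle and 110.1, 127 and 93.0 TPM in MI prednisone. Psmb8 stood at 18.8 ± 4.87% of Psmb5 in sham vehicle, 14.8 ± 3.11% in sham prednisone, 39.1 ± 29.7% in MI vehicle and 15.6 ± 4.18% in MI prednisone (SD, n = 3 each). In MI vehicle the 3 ratios were 25.1%, 18.95% and 73.2%, and without the third the group lay close to the sham vehicle range of 13.2% to 22.2%.

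**Figure D2:**
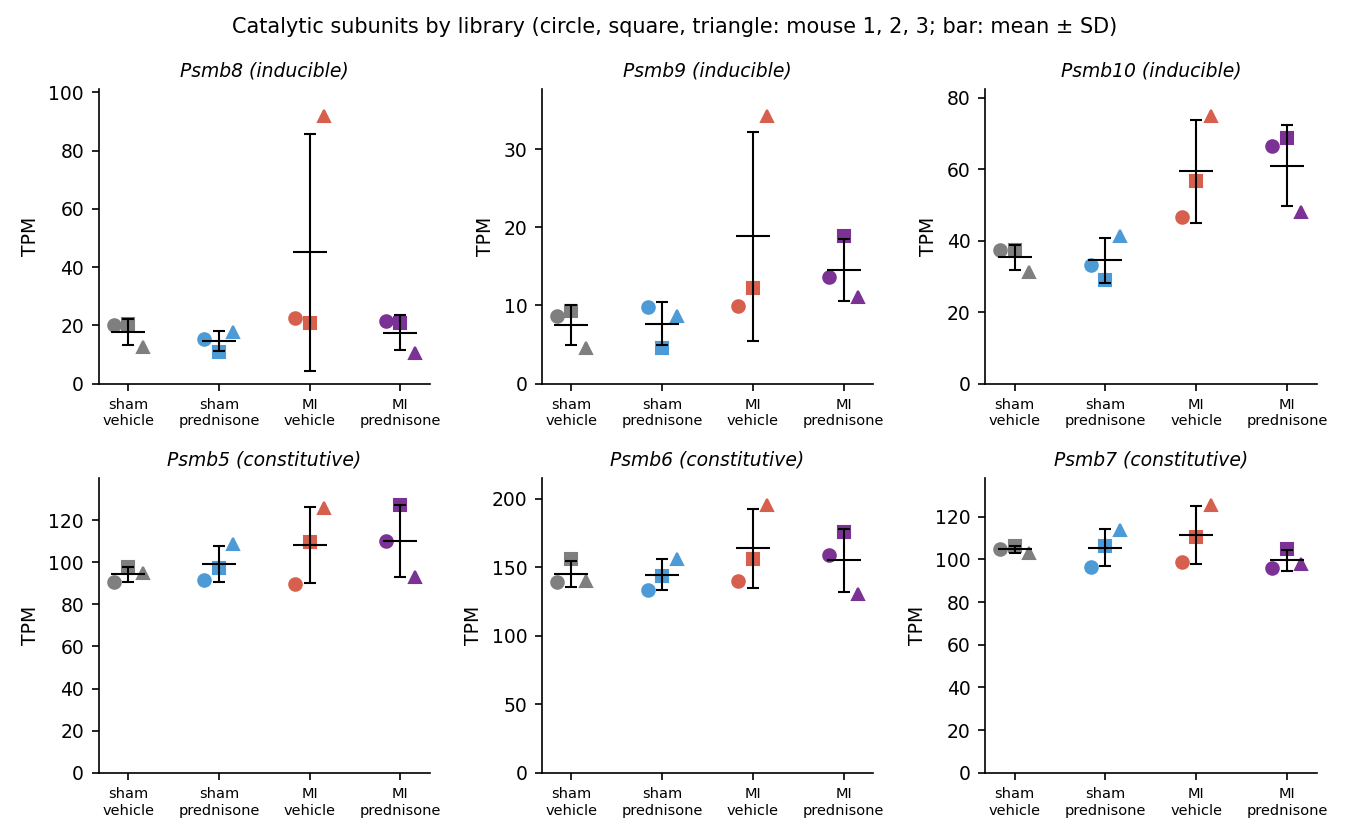
TPM of the 3 inducible active-site subunits (top) and their constitutive counterparts (bottom) in each library, with single mice as symbols and the mean ± SD of 3 as bars. Psmb10 is at 46.6 TPM or more in all MI hearts and at 41.2 TPM or less in all sham hearts, while the high Psmb8 mean of MI vehicle rests on mouse 3 at 92.0 TPM.

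The level of leukocyte markers, summed over 10 genes, was 171 to 276 TPM in sham vehicle, 205 to 277 TPM in sham prednisone, 431 to 1244 TPM in MI vehicle and 202 to 399 TPM in MI prednisone. MI vehicle replicate 3, the library with the highest Psmb8, Psmb9 and Psmb10, had the 1244 TPM, with Ptprc (CD45) at 70.0 TPM against 1.73 to 6.53 TPM in the other 11. Fibroblast markers, 6 genes, summed to 367 to 495 TPM in sham vehicle, 417 to 496 TPM in sham prednisone, 860 to 1115 TPM in MI vehicle and 317 to 552 TPM in MI prednisone. In MI against sham with prednisone none of the 10 leukocyte markers was called (median change 0.20), where 2.73% of all genes were called higher and 14.1% lower. The leukocyte sums of MI prednisone replicates 1, 2 and 3 were 346, 399 and 202 TPM, of which Lyz2 alone made up 303, 360 and 174 TPM. In the same order Psmb10 was at 66.4, 68.6 and 48.0 TPM and Psmb9 at 13.6, 18.8 and 11.1 TPM. These values were above the 6 sham hearts in both genes. The part of these cells in the inducible genes' values was not tested, and in whole tissue a change in the number of cells of a type cannot be told apart from a change of RNA per cell.

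Among mice given vehicle, MI was compared with sham to ask what the infarction did to the proteasome genes. Psmb10 rose by 0.71 on the log2 scale of TPM + 1, on which all changes below are given (SE 0.20, limma adjusted p = 0.0381). Psmd10 (gankyrin, a chaperone of the 19S base, chrX:140948429-140956728, minus strand) rose from 4.19, 5.57 and 4.57 TPM to 6.92, 6.72 and 11.8 TPM, or 0.68 in log2 (SE 0.21, limma adjusted p = 0.0468). Psmd8, a non-ATPase subunit of the 19S lid (chr7:29174188-29180701, minus strand), rose from 52.7, 60.2 and 56.6 TPM to 66.3, 76.8 and 99.3 TPM, or 0.49 in log2 (SE 0.15, limma adjusted p = 0.0472). In each of these 3 genes the 3 MI hearts were above the 3 sham hearts.

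These 3 were the proteasome genes called of 47 tested, at an adjusted p under 0.05 over all 13158 genes, and none was called lower. Of all genes 15.1% were called higher and 0.904% lower in this comparison, so the share of the proteasome genes called higher was below the background. All 47 changes were above 0, from 0.03 for Psme4 to 1.08 for Psmb9, with a median of 0.34 against 0.39 for all genes. The 3 MI hearts were above the 3 sham hearts without overlap for 25 of the 47 genes, where 40.8% of all genes did so, and below them for none (4.17% of all genes). With MI vehicle replicate 3 left out the counts were again 25 and 0 (41.5% and 6.41% of all genes). By role, this held for 9 of the 11 non-ATPase subunits of the 19S cap and for none of the 3 constitutive active-site subunits.

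Psmb9 and Psmb8 had larger log2 changes than Psmb10, 1.08 (SE 0.43) and 0.98 (SE 0.49), but did not pass (limma adjusted p = 0.0871 and 0.142). The constitutive active-site subunits had log2 changes of 0.08 to 0.18, and no member of the constitutive core was called. Without MI vehicle replicate 3, limma called 0 proteasome genes, with 9 at an unadjusted p under 0.05, where 6.92% of all genes were called higher and 0.397% lower. The log2 changes of Psmb10, Psmb9 and Psmb8 were then 0.53, 0.56 and 0.30 (limma adjusted p = 0.101, 0.300 and 0.547). After median-ratio rescaling, which sets the median gene of each library equal and here moved the median change of all genes from 0.39 to 0.00, the median of the 47 genes was -0.10. No proteasome gene was then called, with 8 at an unadjusted p under 0.05 by limma (3.26% of all genes called higher and 3.26% lower), and 13 of the 47 changes were above 0, among them those of the 3 inducible genes at 0.26 to 0.65. Leaving out MI vehicle replicate 1, the lowest of its group in the summed TPM, gave 29 calls, all higher, where 41.2% of all genes were called higher and 1.61% lower, and leaving out any other single mouse gave 0 to 2.

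**Figure D3:**
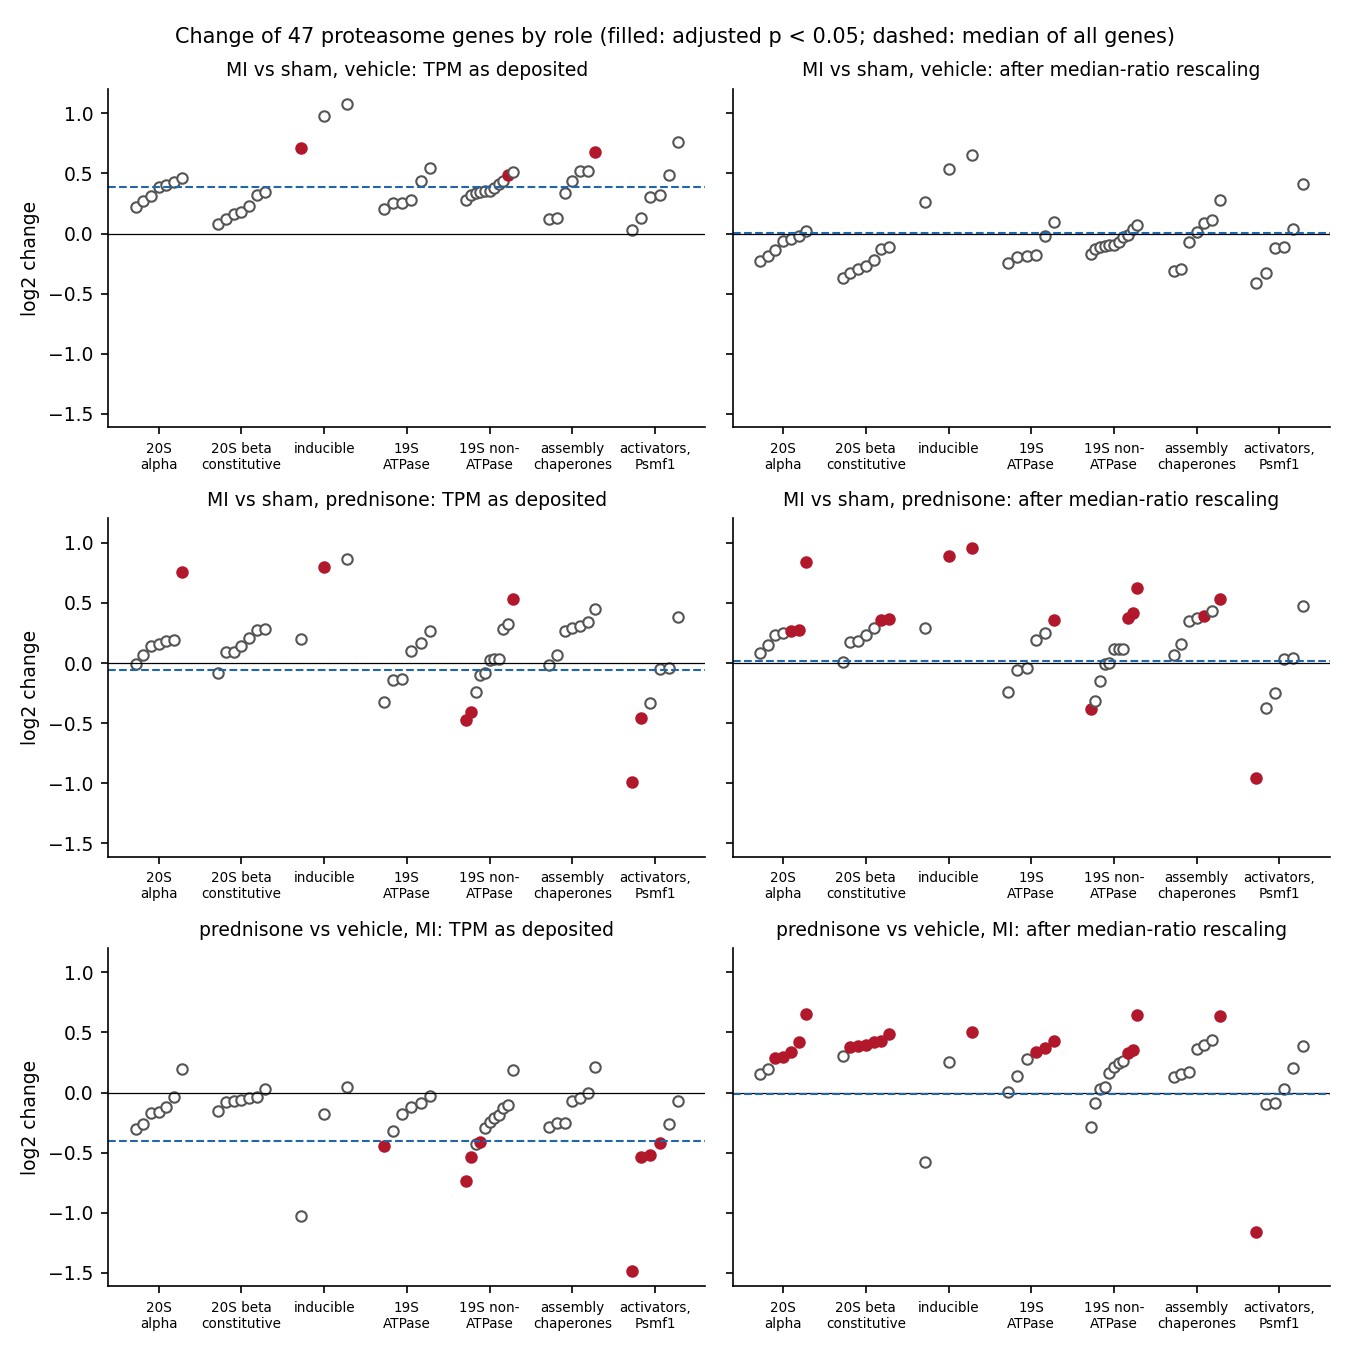
Log2 change of each of the 47 tested proteasome genes, grouped by role, in 3 comparisons, from TPM as deposited (left) and after median-ratio rescaling (right). Filled points have a limma adjusted p under 0.05 and the dashed line is the median of all genes: rescaling moves it from 0.39 to 0.00 in the top row and from -0.41 to -0.01 in the bottom row, and the proteasome genes move with it.

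MI was compared with sham again among the prednisone-treated mice, where 3 proteasome genes were called higher and 4 lower, against 2.73% of all genes higher and 14.1% lower. Psmb10 rose by 0.80 (SE 0.20, limma adjusted p = 0.0186). Psma3, an alpha subunit of the core (chr12:70974621-70996347, plus strand), rose from 59.7, 48.3 and 56.1 TPM to 93.6, 115 and 73.8 TPM, or 0.76 in log2 (SE 0.20, limma adjusted p = 0.0274). Psmd4, the ubiquitin receptor Rpn10 (chr3:95032694-95042614, minus strand), rose from 49.5, 52.8 and 61.7 TPM to 82.3, 94.8 and 64.1 TPM, or 0.54 in log2 (SE 0.16, limma adjusted p = 0.0433). The groups did not overlap in any of the 3, and MI prednisone replicate 3 was the lowest MI heart in each. The gene values are sums over coding and other transcripts. The Psma3 transcript most abundant over all libraries had a retained intron and was at 21.9, 28.998 and 24.2 TPM in MI prednisone. It ranged from 23.9 to 48.7 TPM in the other 9 libraries. A coding Psma3 transcript of 859 bases was at 33.6, 49.5 and 32.004 TPM, against 5.27 to 27.96 TPM. A Psmd4 transcript of 695 bases, described below, was high in MI prednisone, and its part in the Psmd4 rise was not tested.

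The genes that fell were 2 non-ATPase subunits and 2 activators. Psmd11, a lid subunit (chr11:80428615-80473248, plus strand), fell from 33.1, 30.8 and 35.1 TPM to 22.4, 21.5 and 26.8 TPM, or -0.47 in log2 (SE 0.14, limma adjusted p = 0.0391). Psmd1, the scaffold subunit Rpn2 (chr1:86064387-86139151, plus strand), fell from 38.9, 41.3 and 44.1 TPM to 30.1, 30.5 and 32.4 TPM, or -0.41 in log2 (SE 0.11, limma adjusted p = 0.0266). Psme4 (PA200, an ATP-independent activator, chr11:30771726-30880361, plus strand) fell from 43.4, 46.9 and 49.2 TPM to 32.7, 27.4 and 41.9 TPM, or -0.46 in log2 (SE 0.14, limma adjusted p = 0.0469). Psme2b, a near-identical copy of Psme2 with which it can share reads, so that its value is uncertain, fell by 0.99 from 2.72, 1.53 and 2.93 TPM to 0.459, 0.556 and 1.07 TPM. It is named after its values were seen, being below the 5 TPM set for named genes.

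Over all 47 genes the median change was 0.10 against -0.06 for all genes. The 3 MI hearts were above the 3 sham hearts for 6 of the 47 genes and below them for 8, where 12.9% and 32.2% of all genes did so. Without MI vehicle replicate 3, which enters this comparison only through the shared spread, 5 genes were called higher and 6 lower (7.46% and 23.6% of all genes), Psmb9 among the higher at 0.87 (limma adjusted p = 0.0492, against 0.195 with that library). After median-ratio rescaling 13 were called higher and 2 lower (10.8% and 14.6% of all genes). The calls rested on few libraries: leaving out sham prednisone replicate 1, MI prednisone replicate 1 or MI prednisone replicate 2 left none, leaving out sham prednisone replicate 2 or 3 left 1, and leaving out any sham vehicle mouse or MI vehicle replicate 2 left 4. Over the 12 fits with a mouse left out, the log2 change of Psmb10 was 0.69 to 0.96 and its limma adjusted p 0.00565 to 0.082.

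The comparison of prednisone with vehicle among infarcted mice called 8 proteasome genes lower and none higher, while 34.9% of all genes were called lower and 2.50% higher. These were 4 of the 17 genes of the 19S cap, 3 of the 5 activators and Psmf1 (PI31, an inhibitor of the core). No gene of the constitutive core, of the inducible subunits or of the chaperones was called. The median change of the 47 genes was -0.17 against -0.41 for all genes, and it was -0.08 for the 14 constitutive core genes. For 7 of the 47 genes the 3 prednisone hearts were below the 3 vehicle hearts without overlap, where 42.6% of all genes did so, and above them for none (3.59% of all genes). The counts were 7 and 1 without MI vehicle replicate 3 (44% and 9.03% of all genes).

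Psmd11 was measured at 34.2, 38.4 and 47.9 TPM in MI vehicle and 22.4, 21.5 and 26.8 TPM in MI prednisone, and fell by 0.74 (SE 0.14, limma adjusted p = 0.00315). Psmd1 was measured at 39.6, 47.1 and 50.4 TPM and then 30.1, 30.5 and 32.4 TPM, and fell by 0.54 (SE 0.11, limma adjusted p = 0.00413). Psme3 (PA28 gamma, the nuclear activator, chr11:101316213-101323537, plus strand) was measured at 31.9, 31.7 and 50.5 TPM and then 25.9, 24.2 and 25.5 TPM, and fell by 0.54 (SE 0.16, limma adjusted p = 0.0237). In all 3 the groups were apart. The other called genes, Psme2b (-1.48), Psmf1 (-0.52), Psmc6 (-0.45), Psme4 (-0.42) and Psmd2 (-0.41), had limma adjusted p from 0.00167 to 0.0466.

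The inducible genes did not pass: the log2 changes were -1.03 for Psmb8 (SE 0.49, limma adjusted p = 0.114), -0.18 for Psmb9 (SE 0.43) and 0.05 for Psmb10 (SE 0.20). Without MI vehicle replicate 3 they were -0.35, 0.33 and 0.23, so the direction of Psmb9 turned. Without that library 6 proteasome genes were called lower and none higher (28.5% and 3.71% of all genes). Median-ratio rescaling turned the balance: 19 of the 47 were then called higher and 1, Psme2b, lower, against 14.4% and 13.8% of all genes. The 19 comprised 11 of the 14 constitutive core genes, 6 of the 17 genes of the 19S cap, Psmb10 (0.50, limma adjusted p = 0.0185) and a chaperone. Without MI vehicle replicate 3 and with rescaling, 16 were called higher, 9 of them constitutive core genes, and 1 lower (13.1% and 13.8% of all genes). The direction of a core gene in this comparison therefore depended on the scaling; their median was above that of all genes under both, at -0.08 against -0.41 before and 0.38 against -0.01 after rescaling.

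Leaving out MI vehicle replicate 1 raised the calls to 16, all lower (45.7% of all genes lower and 2.11% higher), and leaving out MI prednisone replicate 1 or 2 lowered them to 4 or 5. The MI comparisons share libraries, so a gene that was high in MI vehicle replicate 3 stood higher in the first comparison and lower in this one through the same values. In this comparison 34.9% of all genes were called lower and 2.50% higher (28.5% and 3.71% without MI vehicle replicate 3). Called lower were 5 of 10 leukocyte, 5 of 6 fibroblast, 2 of 5 endothelial and 2 of 3 smooth muscle markers (4, 5, 2 and 0 without that library). Of 6 cardiomyocyte markers 2 were called higher and 1 lower (1 and 2 without that library), and the 3 markers of atrial muscle were called higher, with sums of 121 to 878 TPM in MI vehicle and 1498 to 1923 TPM in MI prednisone. Their part in the proteasome values was not tested.

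Among infarcted hearts the log2 change with prednisone tended to be lower for genes with longer transcripts. Lengths, from GENCODE M21 and weighted by TPM, had a median of 1048 bases over the constitutive core genes, 1579 bases over the 19S genes and 2321 bases over all genes. Across the 47 proteasome genes Spearman's rho between length and the log2 change with prednisone in MI was -0.63, against -0.40 across 13122 genes. The genes share their libraries and are not independent replicates, so the values are descriptions. Leaving out MI vehicle replicate 3 gave -0.61 and -0.45. For MI against sham with prednisone rho was -0.46 across the proteasome genes and -0.48 across all genes, for prednisone in sham hearts 0.19 and 0.20, for MI against sham with vehicle -0.10 and 0.03, and for the interaction -0.56 and -0.45.

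After a correction for transcript length, in which the smooth trend of change on length over all genes was removed, 1 proteasome gene was called higher in infarcted hearts with prednisone and 1 lower, Psmd4 and Psme2b, where 8.83% of all genes were called higher and 7.64% lower. Psmd11 then had a log2 change of -0.32 and Psme4, the longest of the genes, of 0.26, with the sign turned. Psmb10 stayed called in MI against sham with prednisone, at 0.58 (limma adjusted p = 0.0115), and its call in MI against sham with vehicle was lost, at 0.33 (limma adjusted p = 0.0979). A cause of the relation to length was not tested.

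**Figure D4:**
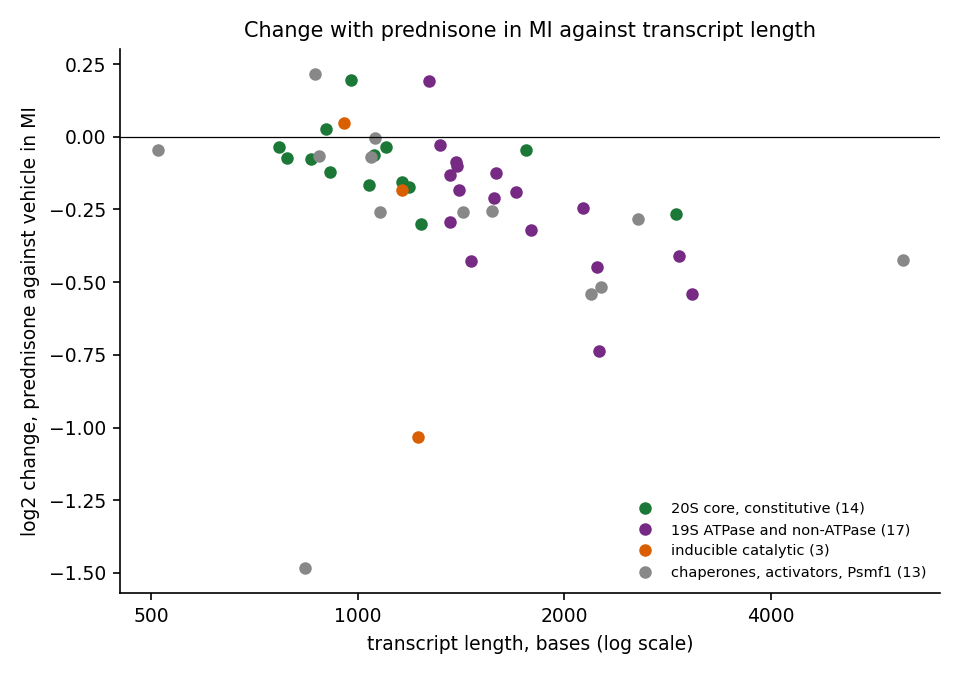
Log2 change against transcript length (log axis, bases) for the 47 proteasome genes, coloured by role, for prednisone against vehicle in MI. Longer genes tended to lie lower, with Spearman's rho of -0.63. The lowest points, Psme2b at -1.48 and Psmb8 at -1.03, are not of long genes (837 and 1226 bases).

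Single transcripts of the proteasome genes were tested too, and those named here were chosen for their values. Of 118 transcripts tested among 27769, 4 were called higher and 14 lower with prednisone in infarcted hearts, against 5.92% and 27.1% of all transcripts. Of 113 transcripts tested without MI vehicle replicate 3, 6 were called higher and 6 lower (6.63% and 21.6%). A coding transcript of the ATPase Psmc3 of 944 bases was measured at 31.3 to 55.1 TPM in the 9 libraries outside MI prednisone and at 0.415, 2.70 and 40.6 TPM within it, a log2 change of -3.11 (limma adjusted p = 0.0208, and 0.0542 without MI vehicle replicate 3). The Psmc3 gene sum was 117, 125 and 129 TPM in the same hearts, inside the range of the other groups. A coding Psmd4 transcript of 695 bases was measured at 0 to 1.02 TPM in the other 9 libraries and at 16.8, 17.6 and 3.27 TPM in MI prednisone. It met the filter through the MI prednisone libraries, the group in which it was high, so its test result is not given.

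A coding Psmd11 transcript of 1626 bases was at 9.38 to 21.4 TPM elsewhere and at 3.28, 4.40 and 8.03 TPM in MI prednisone, a log2 change of -1.61 (limma adjusted p = 0.00118). A Psma3 transcript of 562 bases annotated for nonsense-mediated decay was at 0 to 5.25 TPM elsewhere and at 20.9, 21.2 and 5.27 TPM in MI prednisone. A Psmc4 transcript of 854 bases with a retained intron was at 0.331 to 3.47 TPM elsewhere and at 9.13, 11.6 and 4.48 TPM in MI prednisone. In the Psmc3, Psmd4, Psma3 and Psmc4 transcripts, MI prednisone replicates 1 and 2 were the extreme libraries and replicate 3 lay nearer the other groups.

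**Figure D5:**
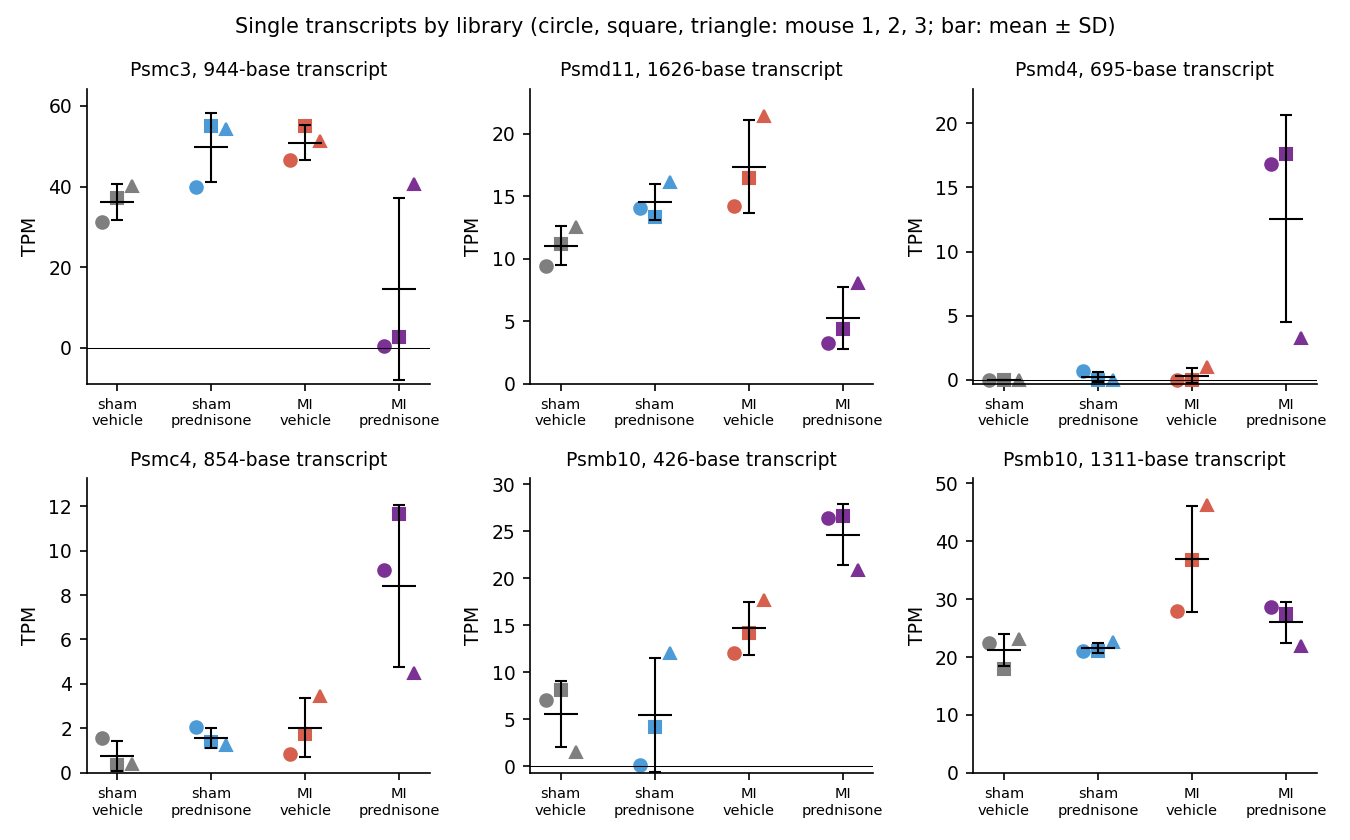
TPM per library of single proteasome transcripts, with single mice as symbols and group means ± SD as bars. In MI prednisone the short Psmd4 transcript reaches 16.8 and 17.6 TPM in mice 1 and 2, while the 944-base Psmc3 transcript drops to 0.415 and 2.70 TPM in the same mice and stays at 40.6 TPM in mouse 3.

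The rise of Psmb10 was divided between its transcripts in this way. The coding transcript of 1311 bases was measured at 22.5, 18.0 and 23.0 TPM in sham vehicle, 21.1, 21.003 and 22.6 TPM in sham prednisone, 27.99, 36.7 and 46.3 TPM in MI vehicle and 28.6, 27.5 and 21.9 TPM in MI prednisone. It rose by 0.76 in MI against sham with vehicle (limma adjusted p = 0.0495; 0.59 and 0.12 without MI vehicle replicate 3), and its change was 0.25 with prednisone (limma adjusted p = 0.36). A processed transcript of 426 bases, without a coding frame, was measured at 0.142, 4.19 and 12.1 TPM in sham prednisone and at 26.4, 26.6 and 20.9 TPM in MI prednisone, and rose by 2.58 (limma adjusted p = 0.026). Over the 9 libraries outside MI prednisone, vehicle groups included, it ranged from 0.142 to 17.7 TPM. Coding transcripts made up 40.0% to 45.7% of the Psmb10 TPM in MI prednisone and 48.2% to 73.8% in the other 9 libraries. A coding Psmb8 transcript of 840 bases was at 14.1, 10.97 and 49.1 TPM in MI vehicle and 8.08, 7.41 and 2.93 TPM in MI prednisone, a fall of 1.64 (limma adjusted p = 0.031). Its log2 change was -1.01 without MI vehicle replicate 3, and the call was lost (limma adjusted p = 0.0922).

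In sham hearts prednisone was compared with vehicle, and limma called no proteasome gene, with 0 at an unadjusted p under 0.05. Of all genes 0.0532% were called higher and 0.0608% lower. Limma also called 0 after median-ratio rescaling, with 1 at an unadjusted p under 0.05 (0.0534% and 0.0686% of all genes), and 0 without MI vehicle replicate 3, with 2 (0.0856% and 0.0623%). The 47 changes lay between -0.25 for Psmb8 and 0.29 for Psmg3, with a median of 0.05 against 0.07 for all genes. In 7 of the 47 (14.9%) the 3 prednisone hearts were above the 3 vehicle hearts, close to the 15.6% of all genes. They were below in 0 of the 47, against 2.58% of all genes. The 7 were among the 17 genes of the 19S cap, and none of them was called. Psmc3, for example, was measured at 111, 118 and 119.5 TPM with vehicle and 126, 136 and 147 TPM with prednisone.

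The interaction of surgery and drug asked whether the prednisone effect differed between MI and sham hearts. It was called for 5 proteasome genes, all more negative in MI, against 20.7% of all genes more negative and 0.540% more positive. The differences were -0.89 for Psmd11 (SE 0.20, limma adjusted p = 0.0139), -0.75 for Psmd1 (SE 0.15, limma adjusted p = 0.011), -0.58 for Psmc6 (SE 0.16, limma adjusted p = 0.0305) and -0.57 for Psmd2 (SE 0.17, limma adjusted p = 0.0348). Psme2b, of uncertain value, had -1.75 (SE 0.34, limma adjusted p = 0.00965). The median difference was -0.21 over the 47 genes and -0.48 over all genes. Without MI vehicle replicate 3, 6 were called more negative and none more positive (23.2% and 0.919% of all genes). After median-ratio rescaling, 6 were called more positive and 1 more negative (4.32% and 4.41%), and the 4 named 19S genes had differences of -0.36 to -0.03. Leaving out MI vehicle replicate 1 raised the calls to 12, all more negative (33.8% of all genes, with 0.722% more positive), and leaving out a sham prednisone mouse, sham vehicle replicate 1 or 3, or MI prednisone replicate 1 or 2 lowered them to 3.

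Psme1 and Psme2, the PA28 alpha and beta subunits that interferon induces and that cap the immunoproteasome, were called in no comparison. Psme1 was measured at 103, 97.0 and 86.2 TPM in sham vehicle, 90.3, 84.9 and 95.3 TPM in sham prednisone, 91.4, 85.4 and 145 TPM in MI vehicle and 84.2, 98.5 and 79.2 TPM in MI prednisone. Psme2 was measured at 50.2, 53.8 and 41.1 TPM in sham vehicle, 54.1, 45.1 and 49.1 TPM in sham prednisone, 51.3, 60.3 and 100.4 TPM in MI vehicle and 67.8, 85.0 and 46.8 TPM in MI prednisone. In both, MI vehicle replicate 3 was highest and the groups otherwise overlapped.

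Psme3 was at 30.5, 30.9 and 27.3 TPM in sham vehicle and 31.5, 30.0 and 35.1 TPM in sham prednisone, and was lowest in MI prednisone. Its fall with prednisone in MI was 0.32 without MI vehicle replicate 3 (limma adjusted p = 0.0277) and 0.09 after median-ratio rescaling (limma adjusted p = 0.498). Psme4 was measured at 41.5, 47.2 and 44.3 TPM in sham vehicle and 41.7, 49.4 and 45.0 TPM in MI vehicle, and the low values were the 32.7 and 27.4 TPM of MI prednisone replicates 1 and 2. Psmf1 was at 9.74, 9.78 and 7.78 TPM in sham vehicle, 8.45, 7.60 and 7.87 TPM in sham prednisone, 9.60, 9.52 and 16.2 TPM in MI vehicle and 8.20, 7.96 and 6.97 TPM in MI prednisone. Its call with prednisone in MI was lost without MI vehicle replicate 3 (-0.28, limma adjusted p = 0.0921).

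The 20S assembly chaperones Psmg1 to Psmg4, which help the alpha ring to form, were called in no comparison on TPM as deposited. Psmg3 was measured at 6.52, 5.94 and 7.16 TPM in sham vehicle, 8.42, 6.48 and 10.0 TPM in sham prednisone, 8.35, 8.22 and 13.7 TPM in MI vehicle and 12.6, 12.6 and 9.70 TPM in MI prednisone. It was the chaperone called higher with prednisone in MI after median-ratio rescaling, at 0.64 (limma adjusted p = 0.00946). Psmg1 and Psmg2 kept to 10.0 to 16.8 TPM and 14.8 to 22.1 TPM over all 12 libraries, and Psmg4 to 11.8 to 23.5 TPM.

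A list of 23 further genes of the ubiquitin and proteasome pathway was read beside the subunits. With prednisone in MI, 2 were called higher and 10 lower, also without MI vehicle replicate 3. The shares of all genes were 2.50% higher and 34.9% lower, and 3.71% and 28.5% without that library. Nfe2l1, the transcription factor that raises proteasome genes when proteasome activity is short, was measured at 192, 203 and 177 TPM in MI vehicle and 102, 84.2 and 130.1 TPM in MI prednisone, and fell by 0.87 (limma adjusted p = 0.00186). Rad23b, a shuttle that brings ubiquitinated proteins to the cap, went from 41.8, 49.8 and 54.6 TPM to 20.2, 15.7 and 29.5 TPM, and fell by 1.16 (limma adjusted p = 0.00176). In both genes the groups were apart. After median-ratio rescaling Nfe2l1 was at -0.41 and lost its call (limma adjusted p = 0.206), and Rad23b was at -0.71 (limma adjusted p = 0.0345).

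The same list had 1 gene higher and 4 lower in MI against sham with prednisone (2 and 10 without MI vehicle replicate 3), with Rad23b at -0.90 and Nfe2l1 at -0.76. Among all genes 2.73% were called higher and 14.1% lower, and 7.46% and 23.6% without that library. Limma called none of the list in MI against sham with vehicle, where 15.1% of all genes were called higher and 0.904% lower. The 3 largest changes of the list there were 0.59 for Rps27a, 0.54 for Ubqln1 and 0.49 for Nfe2l2. In the interaction 10 of the 23 were called more negative in MI, and 11 without MI vehicle replicate 3. The shares of all genes were 20.7% and 23.2%.

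Of 11 genes of class I antigen processing and interferon regulation, Tapbp (tapasin) rose in MI against sham with vehicle, by 0.86 (limma adjusted p = 0.0249), and none was called without MI vehicle replicate 3. The share of all genes called higher was 15.1%, and 6.92% without that library. With prednisone in MI 3 fell, Erap1 by 1.15, B2m by 0.96 and Tapbp by 0.83 (limma adjusted p = 0.00236, 0.0326 and 0.0105), where 34.9% of all genes were called lower. B2m lost its call without MI vehicle replicate 3 (-0.58, limma adjusted p = 0.0967) and after rescaling (-0.49, limma adjusted p = 0.129). After rescaling Erap1 was at -0.73 and Tapbp at -0.38 (limma adjusted p = 0.00215 and 0.0407). B2m, the light chain of class I molecules, was at 479, 442 and 1003 TPM in MI vehicle and 340.5, 322 and 265 TPM in MI prednisone. Tap1, the neighbour of Psmb9, was measured at 6.04, 6.88 and 25.4 TPM in MI vehicle and 6.59, 8.998 and 3.70 TPM in MI prednisone. As for Psmb9, its highest value was in MI vehicle replicate 3.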

How the data were processed

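RNA from mouse myocardium was made into stranded mRNA libraries from 12 mice, 3 per group. Transcript-level TPM were deposited by the authors for 105129 transcripts; the submitters' processing notes name Trimmomatic, HISAT2, kallisto and mm10, with versions and roles not given in the sources used here. Here transcripts were summed to 33641 gene symbols, and 13158 genes reaching 1 TPM in 3 or more of the 12 libraries were tested with limma 3.58.1 (R 4.3.3; moderated, with trend) on log2(TPM + 1), which understates changes of low genes. All 4 groups were fitted together, p-values were adjusted by Benjamini-Hochberg over all genes of a comparison, and calls have an adjusted p under 0.05. The test was checked on simulated data in the comparison of prednisone with vehicle in MI: of 100 genes each changed by 1 or 2 on the log2 scale, 70% and 98% were recovered, with 5.08% false calls among the calls. The simulation drew independent normal noise for each gene, and the changed genes were above about 5 TPM. It held no shift of whole libraries, no relation to length and no library that stood apart. These rates therefore do not cover errors from such sources in the real data. Lengths and gene spans are GENCODE M21 and promoters RefSeq GRCm38.p6. TPM hold no depth, so no counting interval is given, and p-values measure the spread between 3 mice per group.

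Named genes are the inducible subunits and their counterparts, activators, Psma8, Psmb11, Psmf1, Psmg1 to Psmg4, and the 3 largest called changes each way with a mean of at least 5 TPM, plus the 3 largest changes of each pathway list, of which some are not reported here. Psme2b, Psmc6, Psmd2 and the transcripts were named after their values were seen. The members and lists were chosen with earlier results of these data known. Alternatives were median-ratio rescaling, no filter, a pseudocount of 0.1, no trend, only the groups compared, the most abundant transcript, removal of mitochondrial and globin transcripts, a length correction, a replicate block, and each mouse left out. Added after seeing the data were rescaling without MI vehicle replicate 3, leaving out the 3 libraries with thymus genes, and leaving MI vehicle replicate 3 out of the transcript fits, length relation and counts of groups apart.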

Additional observations from a re-analysis of the deposited data

Results flagged for a closer look

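The prednisone effect differed between MI and sham hearts for 5 proteasome genes by the interaction test in limma. The effect in MI minus that in sham was -0.889 for Psmd11, -0.749 for Psmd1, -0.582 for Psmc6, -0.573 for Psmd2 and -1.75 for Psme2b on the log2 scale. Psmc6, an ATPase of the cap, was measured at 50.4, 51.3 and 48.3 TPM in sham vehicle, 52.8, 54.8 and 57.2 TPM in sham prednisone, 49.5, 63.0 and 69.1 TPM in MI vehicle and 43.9, 43.6 and 43.4 TPM in MI prednisone. Of all genes 20.7% were called with a more negative effect in MI. After median-ratio rescaling, limma called Psme2b alone of these 5, at -1.38 (adjusted p = 0.0242).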

How the results depend on the processing

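Limma's counts of called proteasome genes moved with scaling, filter and length. The share of all genes called moved as well. In MI against sham with vehicle 15.1% of all genes were called higher, and 41.2% without MI vehicle replicate 1. For most alternatives in this section the share of all genes is not given. The counts, higher and lower calls together, therefore show how calls depend on the processing and are no result about the proteasome genes. MI against sham with vehicle had 3 calls, but 1 with the most abundant transcript and 0 with median-ratio rescaling (with or without MI vehicle replicate 3), no filter, only the 2 groups, the length correction (with or without the replicate block) or the 3 libraries with thymus genes left out, and 0 to 29 with a mouse left out. MI against sham with prednisone had 7 calls, but 15 with rescaling, 21 with rescaling and MI vehicle replicate 3 left out, 3 with no filter or the most abundant transcript, 4 with no trend, 11 with mitochondrial and globin transcripts removed, and 0 to 11 with a mouse left out. Prednisone against vehicle in MI had 8 calls, but 20 with rescaling, 17 with rescaling and MI vehicle replicate 3 left out, 1 with only the 2 groups, 2 with the length correction, 4 without the 3 thymus libraries, and 4 to 16 with a mouse left out. The interaction had 5 calls, but 1 with the length correction, 2 without the 3 thymus libraries, and 3 to 12 with a mouse left out. The cause of these shifts was not tested. Prednisone in sham hearts had 0 calls under all alternatives run.

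Replicate numbers name different mice. Deviations of same-numbered mice had mean correlations of -0.37, -0.05, -0.25 and 0.00 in the 4 pairs of groups. At most 1 of the 6 mice of a comparison correlated best with its own number. These values gave no sign of pairing by number, but deviations within groups of 3 cannot exclude it. With the replicate block the counts were 1, 5, 7, 0 and 6 in the order MI against sham with vehicle, with prednisone, prednisone in MI, in sham, and the interaction. With the block and length correction they were 0, 2, 2, 0 and 1.

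With the most abundant transcript, the log2 ratios for MI against sham with prednisone moved from 0.06 to -0.60 (Psmb8 to Psmb5), 0.78 to 0.23 (Psmb9 to Psmb6) and 0.88 to 0.33 (Psmb10 to Psmb7), and for prednisone in MI from -1.06 to -1.67, -0.11 to -0.74 and 0.20 to -0.32. In that setting the signs of Psmb8 (-0.46) and Psma3 (-0.17) turned in MI against sham with prednisone, and that of Psmb10 (-0.47) with prednisone in MI. Signs also turned with prednisone in MI for Psmb9 under rescaling (0.26), rescaling without MI vehicle replicate 3 (0.56), the length correction with or without the block (0.0101), and without the 3 thymus libraries (0.33), with a range of -0.51 to 0.33 as mice were left out. Psmb10 ranged from -0.11 to 0.23 as mice were left out, with -0.02 and -0.05 without MI prednisone replicates 1 and 2. Under rescaling Psmc6 was at 0.00661, Psmd2 at 0.0475 and Psme4 at 0.0293, and under the length correction, with or without the block, Psmd2 was at 0.0925 and Psme4 at 0.26. The Psmd2 interaction was at 0.00861 under the length correction, with or without the block. In TPM no depth is known.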
